A study of Mus musculus with 6 samples.

Results

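Rag1 and Rag2 encode the 2 subunits of the recombinase that cuts DNA at recombination signals and so begins the assembly of antigen receptor genes. They were followed here as 2 probe sets, the only ones that carry the single symbol Rag1 or Rag2, of 35556 on the array, and as 2 of 19938 measured genes. RNA came from RAG2+ B lineage cells of RAG2-GFP/129Sve mice at post-natal day 17 to 25, sorted for RAG2-GFP from small intestinal lamina propria, which is connective tissue beneath the gut epithelium (3 pools), and from the bone marrow (3 pools). Each experiment used 8 to 12 mice, the pools were independent replicates, and each pool was measured on 1 array. Both tissues carried the same reporter strain and were sorted on the same reporter, and all mice were kept under specific pathogen-free conditions. Each tissue is thus represented by 3 pools of several animals and not by single mice.

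In developing B cells, RAG1 holds the catalytic site and RAG2 binds it and reads a chromatin mark of active genes, and neither cuts DNA without its partner. Both genes are transcribed while the heavy chain and then the light chain genes are rearranged, are turned down in between as the cells divide, and are shut off once a complete receptor is made. Transcription depends on factors such as FOXO1, E2A (the product of Tcf3), EBF1 and PAX5, and RAG2 protein is removed when cells enter S phase. Fluorescence of a green reporter of Rag2 can outlast the transcript, so a sort on it can take both cells that recombine their receptor genes and cells that recently did so. Whether it did so in these sorts was not tested.

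The genes lie tail to tail on mouse chromosome 2, with starts 24820 bases apart. A start of Iftap, also called NWC and known as the third gene of the RAG locus, lies within the annotated span of Rag2 on the opposite strand, 4319 bases from the start of Rag2. The windows around these starts, from 250 bases before to 50 after, are shown because the values of all 3 genes lay lower together in the lamina propria. Sequences are from RefSeq (GRCm38.p6), 5′ to 3′ on each gene's own strand, and capitals mark E-boxes (CANNTG), the RUNX core (TGTGGT) and CCAAT boxes, on either strand. The Rag1 window is chr2:101649483-101649782 (minus strand), the Rag2 window chr2:101624462-101624761 (plus strand) and the Iftap window chr2:101628982-101629281 (minus strand).
Rag1: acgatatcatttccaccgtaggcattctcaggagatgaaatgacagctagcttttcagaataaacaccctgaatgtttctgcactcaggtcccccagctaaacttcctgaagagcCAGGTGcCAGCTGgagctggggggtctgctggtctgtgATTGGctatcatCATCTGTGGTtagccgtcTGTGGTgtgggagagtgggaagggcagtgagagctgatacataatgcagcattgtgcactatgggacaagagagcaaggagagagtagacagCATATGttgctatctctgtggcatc
Rag2: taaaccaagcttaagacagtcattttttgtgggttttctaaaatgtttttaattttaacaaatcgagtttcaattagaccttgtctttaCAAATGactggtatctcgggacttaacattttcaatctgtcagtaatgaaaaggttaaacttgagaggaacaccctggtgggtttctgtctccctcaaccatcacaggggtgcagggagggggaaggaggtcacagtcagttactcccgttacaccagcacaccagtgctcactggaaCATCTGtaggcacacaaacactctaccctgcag
Iftap: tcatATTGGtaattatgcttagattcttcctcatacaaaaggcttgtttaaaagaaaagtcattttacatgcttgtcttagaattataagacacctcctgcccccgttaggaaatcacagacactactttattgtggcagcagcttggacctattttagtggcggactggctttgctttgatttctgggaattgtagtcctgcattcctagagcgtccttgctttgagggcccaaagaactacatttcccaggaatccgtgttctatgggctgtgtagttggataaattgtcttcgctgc

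The Rag1 window held 4 E-boxes, 2 RUNX cores, of which 1 overlaps an E-box, and 1 CCAAT box read on the opposite strand. The Rag2 window held 2 E-boxes but neither a RUNX core nor a CCAAT box, and the Iftap window held 1 CCAAT box on the opposite strand and no E-box. A second annotated Iftap start, not shown (window chr2:101620997-101621296, minus strand), had 6 E-boxes and 2 matches of the MYB core, 1 of which overlaps an E-box, and none of the other motifs. Of 32851 promoter windows of the same length, 72.3% held an E-box, 16.8% a RUNX core and 37.4% a CCAAT box. Of the other motifs searched on both strands, the MYB core (AACNG, in 80.3% of all windows) matched in the Rag2 window (2 matches) and the Iftap window (1 match). The IKZF core (TGGGAA, 25.6%) matched in the Rag1 window (1 match) and the Iftap window (2 matches), where LEF1 letters (CTTTGA, 16.0%) also matched at 2 places. The FOXO letters (TGTTTAC, 3.65%) matched in none of these 3 windows. A match is a description of letters and not of a bound site.

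The lamina propria arrays were not alike, which touches every value below. Medians over all probe sets were close, from 5.36 to 5.48 in lamina propria pools and from 5.34 to 5.42 in marrow pools on the log2 scale. The spread was not: the interquartile range was 2.00 and 1.94 in lamina propria pools 1 and 2. It was 2.47 in lamina propria pool 3 and from 2.41 to 2.46 in the marrow pools. Pool 3 of the lamina propria correlated across genes at 0.954 to 0.966 with the bone marrow arrays, whereas pools 1 and 2 correlated with the other 4 arrays at 0.766 to 0.832. Genes are not independent replicates. Precision is limited by having 3 arrays per tissue. Over all genes limma called 0 at an adjusted p under 0.05 (0% of 19938), with 2728 at an unadjusted p under 0.05 (13.7%). Of B lineage genes, Vpreb1, part of the surrogate light chain, was chosen for display after its values were seen. It had 11.92, 11.71 and 11.67 in the lamina propria pools and 11.83, 11.79 and 11.85 in the bone marrow pools. Ptprc was less even, with 6.58, 8.26 and 9.60 in the lamina propria pools, against 9.42, 9.32 and 10.15 in the bone marrow pools. Of 6 measured B lineage markers, 3 had a negative difference and 3 a positive one.

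Rag2, the gene of the reporter used for the sort, had log2 values of 5.67, 5.75 and 6.06 in lamina propria pools 1, 2 and 3, against 7.76, 8.49 and 8.28 in bone marrow pools 1, 2 and 3. Every lamina propria pool lay below every marrow pool, with a gap of 1.70 between the highest lamina propria and the lowest marrow pool. The mean was 5.83 ± 0.21 in lamina propria pools and 8.18 ± 0.37 in marrow pools (SD, n = 3 each). The median of all genes was 5.62, 5.58 and 5.42 in lamina propria pools 1, 2 and 3, so that Rag2 stood close to it in pools 1 and 2 and above it in pool 3. The file gives no detection call, so whether Rag2 was above background in the lamina propria was not tested. The difference was -2.35 (95% interval -2.95 to -1.75), a level 5.11-fold lower in the lamina propria (interval 3.37 to 7.74) or 19.6% of that in the marrow. By unadjusted p Rag2 was the gene with the third smallest value of 19938, and 0.607% of genes had a difference as low. It did not pass over all genes (limma adjusted p = 0.155). Cells of both tissues were taken by the fluorescence of the Rag2 reporter, so this is a difference in transcript among cells that all passed the reporter gate. The fluorescence of each pool is not among the values used here, and whether the probes read the transcript of the reporter allele is not stated by the labels. In pooled cells, fewer cells with the transcript and less transcript per cell cannot be told apart.

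Rag1, the catalytic subunit, had 9.75, 9.68 and 10.47 in lamina propria pools 1, 2 and 3, against 10.92, 10.99 and 11.15 in bone marrow pools 1, 2 and 3. The tissues again did not overlap, with a gap of 0.45, and pool 3 was the lamina propria pool nearest to the marrow. The mean was 9.97 ± 0.44 in lamina propria pools and 11.02 ± 0.12 in marrow pools (SD, n = 3 each). The difference was -1.05 (95% interval -1.66 to -0.43), a level 2.07-fold lower in the lamina propria (interval 1.35 to 3.17) or 48.3% of that in the marrow. It did not pass over all genes (limma adjusted p = 0.307), and 8.26% of genes had a difference as low. For both members all lamina propria pools lay below all marrow pools, as they did for 1450 genes (7.27%).

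**Figure D1:**
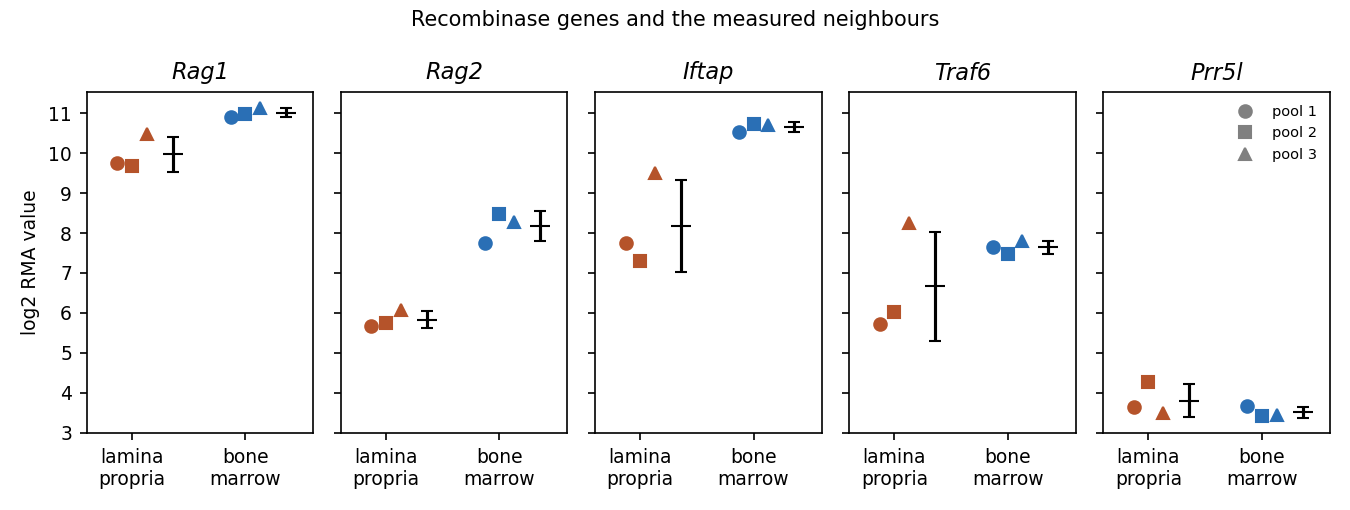
Log2 RMA values of Rag1, Rag2 and their measured neighbours Iftap, Traf6 and Prr5l in each pool (symbols, lamina propria left and bone marrow right), with the mean and SD of 3 pools in black. Rag1, Rag2 and Iftap do not overlap between the tissues, Traf6 and Prr5l do, and heights are comparable between tissues and not between genes.

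In the deposited values, the 2 subunits did not differ between the tissues by the same amount in these pools. The log2 value of Rag2 minus that of Rag1, taken within each array so that a shift of the whole array cancels, was -4.09, -3.94 and -4.41 in the lamina propria pools, against -3.16, -2.50 and -2.86 in the bone marrow pools. Every lamina propria pool was lower than every marrow pool, and pool 3 of the lamina propria had the lowest value. The means were -4.14 ± 0.24 in lamina propria pools and -2.84 ± 0.33 in marrow pools (SD, n = 3 each). A shift that depends on level does not cancel in this way. Against the median of other genes of about its own marrow level, Rag2 stood at -1.06, -0.90 and -2.05 in lamina propria pools 1, 2 and 3. Rag1, against genes of its own level, stood at -1.14, -1.17 and -0.55 in the same pools. By that measure Rag2 was lower than Rag1 in pool 3 alone. Without regard to level, the difference of -1.30 means that Rag2 was lower by a further 2.47-fold than Rag1. The two-sided exact permutation test gave p = 0.1, the smallest that 3 against 3 can give, so this difference could not pass 0.05.

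How far the pair stood below other genes of the same marrow level varied with the pool. For Rag2, 641 other genes had a marrow mean within 0.25 of its own. Their median difference from the marrow mean was -1.45 in lamina propria pool 1, -1.53 in pool 2 and -0.06 in pool 3, while that of Rag2 was -2.51, -2.43 and -2.11 in the same pools. Rag2 was thus lower by similar amounts in all 3 pools, and by least in pool 3, at values of 5.67, 5.75 and 6.06. Whether these values were above background was not tested, so their likeness does not separate Rag2 from the shift of genes of its level. In pools 1 and 2, 19.0% and 25.6% of these genes lay as low relative to the marrow as Rag2, and in pool 3 2 of them did (0.312%). For Rag1, only 43 other genes lay within 0.25 of its marrow level. Their median differences were -0.13, -0.17 and 0.00 in pools 1, 2 and 3, against -1.26, -1.33 and -0.55 for Rag1, and 11.6%, 20.9% and 6.98% of them lay as low. Both genes were closer to the marrow in pool 3 than in pools 1 and 2, Rag2 by less than Rag1.

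**Figure D2:**
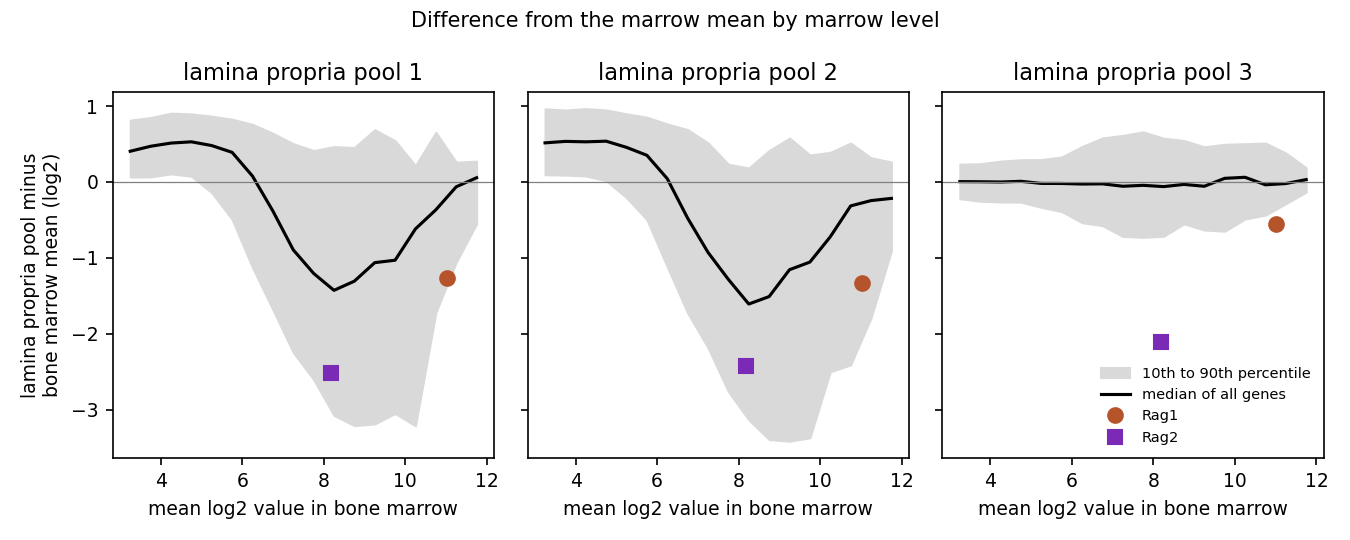
Difference of each lamina propria pool from the bone marrow mean (log2) against the marrow mean, with the median (line) and the 10th to 90th percentile (grey) of all genes in bins of marrow level, and Rag1 and Rag2 as points. Genes of middle levels are lower in pools 1 and 2 and not in pool 3, where Rag2 at -2.11 lies far below the grey band.

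With pool 3 left out, both genes passed (limma adjusted p = 0.00759 for Rag2, at -2.47, and 0.0101 for Rag1, at -1.30), but 36.2% of all genes then passed too. Both also passed with array weights (limma adjusted p = 0.0152 for Rag2 and 0.0167 for Rag1), where 28% of all genes did, and Rag2 passed with a variance trend on intensity and robust variances (limma adjusted p = 0.0456), where 0.201% did. With pool 3 alone against the marrow pools, a comparison chosen after the data were seen, Rag2 differed by -2.11 (95% interval -2.98 to -1.25, limma adjusted p = 0.363) and Rag1 by -0.55 (95% interval -1.02 to -0.07, limma adjusted p = 0.632), which assumes that the lone pool varies like the marrow pools.

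**Figure D3:**
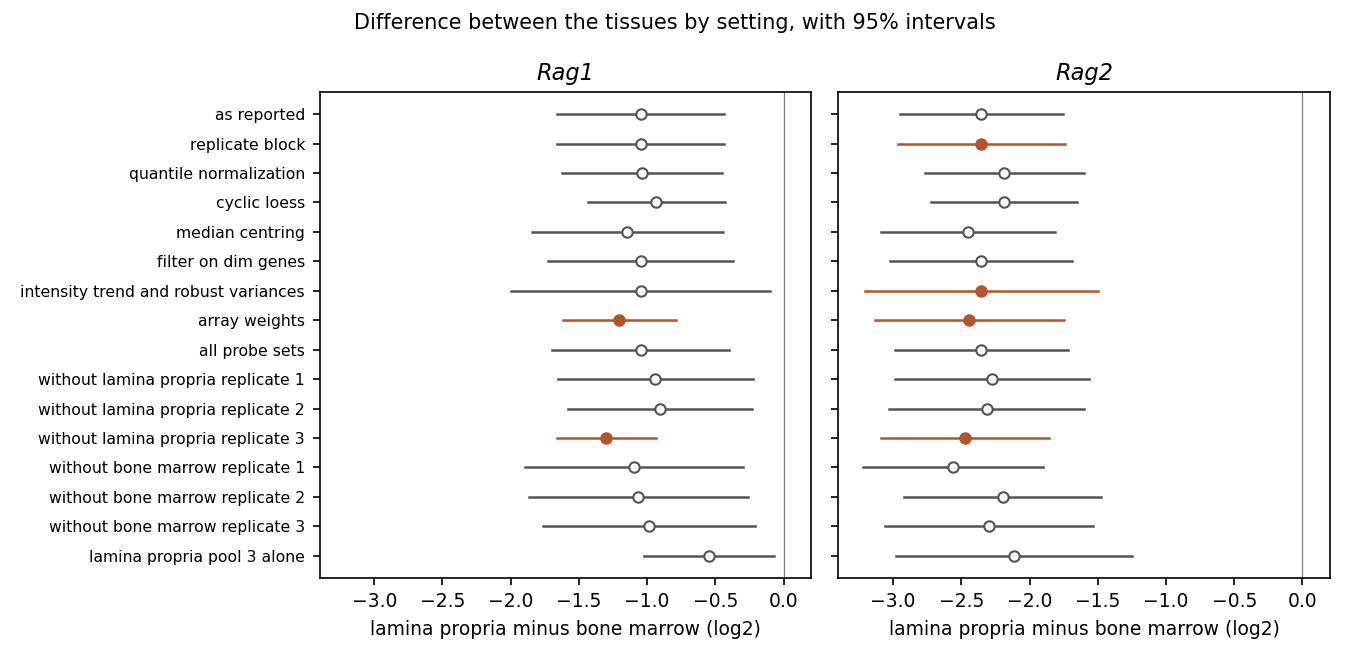
Difference between lamina propria and bone marrow (log2) of Rag1 and Rag2 as reported and under each alternative, with 95% intervals, filled where the limma adjusted p over all genes was under 0.05. All points lie below 0, between -1.30 and -0.55 for Rag1 and between -2.56 and -2.11 for Rag2.

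Of the nearest annotated genes, 3 on each side of the pair, Iftap, Traf6 and Prr5l were measured. Iftap, which overlaps Rag2, had 7.76, 7.31 and 9.495 in lamina propria pools 1, 2 and 3, against 10.52, 10.74 and 10.71 in the bone marrow pools. It did not overlap between the tissues, and its difference was -2.47 (95% interval -3.70 to -1.24, limma adjusted p = 0.268), a level 5.54-fold lower. In pool 3, none of the 72 other genes within 0.25 of its marrow level lay as low relative to the marrow as Iftap, at -1.16. The sources used here do not say which strand the probes of Iftap and Rag2 read or whether they share sequence, so signal of one in the other was not tested. Traf6, an adaptor of receptor signalling on the Rag1 side, had 5.72, 6.03 and 8.24 in the lamina propria pools, against 7.64, 7.47 and 7.81 in the bone marrow pools. Its pools overlapped, with pool 3 above all marrow pools, and the difference was -0.98 (95% interval -2.42 to 0.46, limma adjusted p = 0.382). Prr5l, a partner of a TOR kinase complex, differed by 0.295 (95% interval -0.31 to 0.90) at low values, from 3.50 to 4.27 in lamina propria pools and from 3.41 to 3.66 in marrow pools. Rag1, Rag2 and Iftap thus lay below the marrow in every pool, and Traf6 in pools 1 and 2 alone. Traf6 was not set against other genes of its marrow level, so whether it went beyond the shift in those pools was not tested.

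The partners of the recombinase in joining the cut ends had differences that ranged from -2.62 to 0.52. Of 13 measured genes, 7 had a negative difference, against 32.4% of all genes, 4 lay below the marrow in every pool, against 7.27%, and 1 lay above it in every pool, against 14.8%. None passed, and the median was -0.23, against 0.22 over all genes. Here and for the lists that follow, the values for all genes cover every level and were not matched to the level of the members. Over the 9969 genes of at least median level the median difference was -0.05. Xrcc4, which holds DNA ligase IV at the break, had 5.27, 4.93 and 6.15 in the lamina propria pools, against 8.22, 7.75 and 8.25 in the bone marrow pools, a difference of -2.62 (limma adjusted p = 0.155) and the only member with a lower difference than Rag2. Its ligase, Lig4, differed by -0.23 (95% interval -0.96 to 0.51). Prkdc and Atm, kinases that respond to the break, differed by -1.04 and -1.39 (limma adjusted p = 0.341 and 0.356), and Xrcc5, the larger Ku subunit, by -1.49 with overlap between the tissues (limma adjusted p = 0.356). The end-trimming nuclease gene Dclre1c was not analysed here.

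Transcription factors known to act on the Rag genes mostly had small negative differences. Of 14 measured factors, 12 had a negative difference (32.4% of all genes), 3 lay below the marrow in every pool (7.27%) and 1 above (14.8%). None passed, and the median was -0.25, against 0.22 over all genes. By pool the median difference from the marrow mean was -0.36, -0.28 and -0.04 in lamina propria pools 1, 2 and 3. Over all genes it was 0.31, 0.31 and -0.01 in the same pools. Bcl11a, a factor needed early in the B lineage, had 7.07, 6.71 and 7.45 in the lamina propria pools, against 9.47, 9.02 and 8.06 in the bone marrow pools, a difference of -1.77 (95% interval -2.68 to -0.86, limma adjusted p = 0.281). Tcf12, which encodes the E protein HEB, differed by -1.85 (95% interval -3.06 to -0.64, limma adjusted p = 0.342). Its lamina propria pool 3 stood at 8.14 and the other two at 6.15 and 6.26, against 8.87, 8.49 and 8.74 in the marrow. These 2 were the only factors with a difference lower than that of Rag1. Gfi1b, a repressor of Rag transcription, was the factor above the marrow in every pool, by 0.56 (95% interval -0.06 to 1.18, limma adjusted p = 0.356), and Satb1, a chromatin organiser, differed by -0.49 with overlap (limma adjusted p = 0.363). Foxo1 itself, chosen for display after its values were seen, had 7.94, 7.96 and 8.27 in the lamina propria pools, against 8.55, 8.39 and 7.90 in the bone marrow pools, and the tissues overlapped.

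Among genes of the signals that reach FOXO1, 2 of 9 measured members lay below the marrow in every pool (7.27% of all genes), and these were lower by more than Rag2 (0.607% of all genes had a difference as low). Il7r, the receptor chain for interleukin 7, differed by -2.46 (95% interval -3.77 to -1.15, limma adjusted p = 0.285), and Pik3r1, the regulatory subunit of PI3 kinase, by -2.98 (95% interval -5.14 to -0.82, limma adjusted p = 0.356). The values of Pik3r1 were 4.41, 4.83 and 8.16 in the lamina propria pools, against 8.36, 8.57 and 9.41 in the bone marrow pools, so that pool 3 was near the marrow. Akt2, a kinase that keeps FOXO factors out of the nucleus, differed by -0.87 and Syk, a kinase of the pre-B cell receptor, by -0.41, both with overlap. The list had 6 negative differences of 9 (32.4% of all genes) and a median of -0.23, against 0.22 over all genes, and none passed.

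Of 12 measured genes for partners of the RAG proteins and for the removal of RAG2, 11 had a negative difference (32.4% of all genes) and 3 lay below the marrow in every pool (7.27%). None passed, and the median was -0.73, against 0.22 over all genes. That median was -0.03 in pool 3 alone, against -0.70 and -1.17 in pools 1 and 2. Rbx1, the RING subunit of cullin ubiquitin ligases, differed by -1.15 (95% interval -1.85 to -0.45, limma adjusted p = 0.314) and had 7.53, 6.90 and 7.88 in the lamina propria pools, against 8.64, 8.81 and 8.31 in the bone marrow pools. Dcaf1, a substrate adaptor that binds RAG1, differed by -1.26, Kpna2, an importin that binds RAG1, by -1.13, and the ligase scaffold Cul4a by -0.57, each with overlap and limma adjusted p of 0.356 to 0.357. Skp2, which targets RAG2 for removal in S phase, was chosen for display after its values were seen, and had 5.87, 5.71 and 5.59 in the lamina propria pools, against 5.99, 6.05 and 6.33 in the bone marrow pools. It lay below the marrow in every pool, by -0.40.

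**Figure D4:**
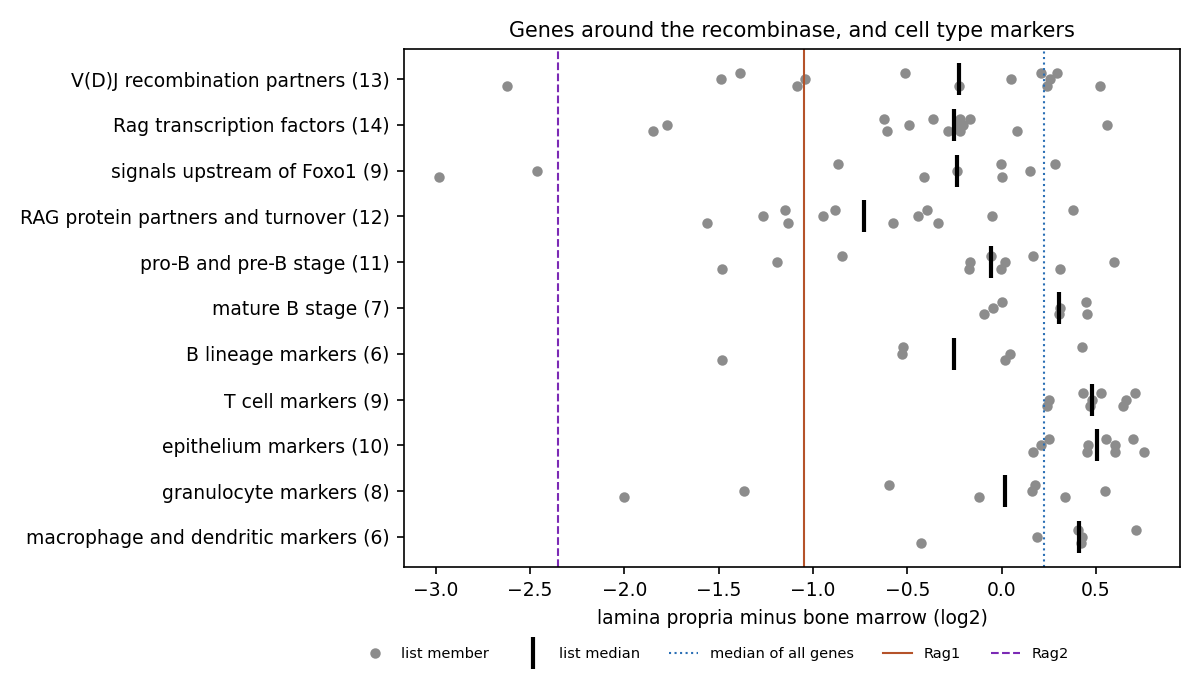
Difference between lamina propria and bone marrow (log2) of each measured member of the lists (points, number of genes in brackets), with the list median (black bar) and lines for Rag1, Rag2 and the median of all genes. Rag2 at -2.35 is passed by Xrcc4, Il7r and Pik3r1 alone among the listed genes, and the T cell and epithelium markers all lie above 0.

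Genes of the stages at which the recombinase is active had differences on both sides of 0. Of 11 measured pro-B and pre-B genes, 7 had a negative difference (32.4% of all genes), 1 lay below the marrow in every pool (7.27%) and 1 above (14.8%). None passed, and the median was -0.06, against 0.22 over all genes. Cd93, a surface marker of immature B cells, had 8.21, 7.57 and 8.99 in the lamina propria pools, against 9.72, 9.87 and 9.64 in the bone marrow pools, a difference of -1.48 (95% interval -2.31 to -0.65, limma adjusted p = 0.299). Sox4, a factor of early B cells, was above the marrow in every pool, by 0.59 (95% interval -0.0013 to 1.19, limma adjusted p = 0.356). Bst1 and Il2ra, surface markers of pro-B and pre-B cells, differed by -1.19 and -0.85 with overlap. Of 7 measured genes of mature B cells, 5 had a positive difference (67.6% of all genes) and 1 lay above the marrow in every pool (14.8%), and the median was 0.30, against 0.22 over all genes. These shares were near those of all genes. Tnfrsf13c, the receptor for BAFF, was the one above the marrow, by 0.31 (limma adjusted p = 0.372), and Fcer2a, Cd40 and S1pr1 differed by 0.45, 0.30 and 0.45 with overlap.

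Markers of other cells also had differences between the tissues, of which none passed, and their part in the values of Rag1 and Rag2 was not tested. The median difference of all genes from the marrow mean was 0.31 in lamina propria pools 1 and 2 and -0.01 in pool 3. The shares below are over genes of all levels and were not matched to the level of these markers. T cells, which also use the recombinase while they form in the thymus, were followed by 9 measured markers, all with a positive difference (67.6% of all genes had one), of which 6 lay above the marrow in every pool (14.8% of all genes) and none passed. Their mean level per array was 4.83 to 5.34 in lamina propria pools and 4.65 to 4.67 in marrow pools. Cd3e, part of the T cell receptor complex, differed by 0.64, and Cd8a, a coreceptor, by 0.66 (limma adjusted p = 0.356 each). All 10 epithelium markers had a positive difference (67.6% of all genes) and 4 lay above the marrow in every pool (14.8%), at mean levels of 5.34 to 5.66 in lamina propria pools and 4.96 to 5.09 in marrow pools, with Cdx1, an intestinal transcription factor, at 0.76. Macrophage and dendritic cell markers had 5 positive differences of 6 (67.6% of all genes), at 4.90 to 5.27 in lamina propria pools and 4.70 to 4.89 in marrow pools, with the receptor gene Csf1r at 0.71. Granulocyte markers had 4 positive differences of 8 (67.6% of all genes), at 4.91 to 5.49 in lamina propria pools and 5.07 to 6.33 in marrow pools, where the neutrophil gene S100a9 reached 9.26 in pool 2. Of 6 measured B lineage markers 3 had a negative difference (32.4% of all genes) and 3 a positive one, at 7.19 to 8.10 in lamina propria pools and 7.67 to 8.15 in marrow pools. Ptprc, the common leukocyte antigen, and Cd37, a tetraspanin, differed by -1.48 and -0.53 with overlap, and Cd22, an inhibitory receptor, lay above the marrow in every pool, by 0.43. Cd79b, a chain of the B cell receptor, had 10.18, 7.22 and 9.89 in the lamina propria pools, against 9.75, 9.69 and 9.43 in the bone marrow pools. Its difference of -0.52 came with pool 2 alone below the marrow and pools 1 and 3 above it. No marker is at 0 in these values, since RMA gives every probe set a level.

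Genes with a pattern like that of each member were ranked by Pearson correlation over the 6 arrays among 9968 other genes of at least median level. For Rag1 the first 5 were Ube2v2, a partner of a ubiquitin-conjugating enzyme, Mrpl51, a mitochondrial ribosomal protein, Krit1, an adaptor of cell junctions, Zc3h12c, an RNA-binding protein, and Cept1, a phospholipid enzyme, with r from 0.997 to 0.999. For Rag2 they were Ska2, of the spindle and kinetochore, Tubgcp6, of the gamma-tubulin ring, Ifi209, an interferon-inducible gene, Plcb4, a phospholipase, and Mapk1ip1, with r from 0.987 to 0.997. The first 5 of Rag1 differed by -2.63 to -1.42 and had pool 3 well above pools 1 and 2, as in Ube2v2, with 5.30, 5.21 and 7.29 in the lamina propria pools, against 8.41, 8.42 and 8.87 in the bone marrow pools. The first 5 of Rag2 differed by -1.69 to -0.23, each by less than Rag2, and had all 3 lamina propria pools close together. Ifi209, the most lowered of them, had 7.87, 7.98 and 8.17 in the lamina propria pools, against 9.48, 9.70 and 9.90 in the bone marrow pools. The pair correlated with each other at r = 0.929, which placed Rag2 at rank 730 for Rag1 and Rag1 at rank 92 for Rag2. Iftap stood at rank 12 for Rag1 (r = 0.993) and at rank 136 for Rag2 (r = 0.913). These correlations over 6 arrays share the split between tissues and the stand of lamina propria pools 1 and 2.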

How the data were processed

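The deposited values are log2 and, per the submitters' processing notes, the authors ran RMA with Affymetrix Expression Console, version 1.3.0.187. The sources used here do not give its settings. Per the labels' protocols, 4.5 to 47 ng of Trizol-extracted RNA were amplified with a whole-transcriptome kit, and which pool had how much is not given. Values were used as deposited, without centring or scaling. Probe sets with 1 gene symbol in the platform's table gave 19938 genes, each by its probe set of highest mean. The tissues were compared with limma 3.58.1 (R 4.3.3; lmFit and eBayes without trend or block). Two-sided p-values were adjusted across the 19938 genes by Benjamini-Hochberg, and 0.05 was the threshold. The difference between the subunits had an exact permutation test (scipy 1.17.1). The pool numbers are not said to pair the samples, and deviations of same-numbered pools from their tissue means correlated at 0.131, 0.051 and 0.226. The members and lists were chosen with earlier results of these data known, as was the rule for named genes, which took the pair, up to 4 members of each list with the smallest p, measured neighbours and the 5 most alike genes. Lig4, Foxo1, Skp2 and Vpreb1 were named outside it, after their values were seen. The older symbol Skp1a was matched to Skp1 through RefSeq. The fit was also run on simulated arrays that had the marrow spread in both tissues, so this does not cover a spread that differs between the tissues. Figures were drawn with matplotlib 3.10.9.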

Additional observations from a re-analysis of the deposited data

How the results depend on the processing

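Under all 15 alternatives for each gene, Rag1 and Rag2 kept a negative difference. Rag2 passed the threshold with the pool number as a replicate block (-2.35, limma adjusted p = 0.0476), with the variance trend on intensity and robust variances (-2.35, adjusted p = 0.0456), with array weights (-2.44, adjusted p = 0.0152) and without lamina propria pool 3. Rag1 passed with array weights (-1.20, adjusted p = 0.0167) and without lamina propria pool 3. With 1 array left out, Rag1 ran from -1.30 to -0.91 and Rag2 from -2.56 to -2.20. Over all genes the calls numbered 0 as reported, 16 with the replicate block, 40 with the trend, 5586 with array weights, 1 over all probe sets, and from 0 to 7222 with 1 array left out, the highest without lamina propria pool 3, and the cause was not tested. The block is a description, since no label says that the numbers pair the pools. The difference between the subunits ran from -1.57 to -1.13 over its 10 alternatives, and was -1.30 (exact sign-flip p = 0.25, the smallest possible) within pool numbers as a replicate block. Quantile normalization and cyclic loess gave -2.18 and -2.19 for Rag2 and -1.04 and -0.93 for Rag1.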
